A study of Mus musculus with 4 samples.

Results

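NADPH oxidases are membrane enzymes that pass electrons from NADPH to oxygen and so make superoxide or hydrogen peroxide. The phagocyte enzyme, NOX2, is built from a catalytic subunit (Cybb) and a stabilising partner (Cyba) in the membrane, joined on activation by cytosolic subunits that include Ncf1 and Ncf4, and it is known for killing microbes in neutrophils and macrophages. The gut lining has oxidases of its own: NOX1, which works with the organiser Noxo1 and the activator Noxa1, and the dual oxidase Duox2, which needs the maturation factor Duoxa2 to leave the endoplasmic reticulum.

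The genes described here are 9 members of this family, 4 phagocytic (Cybb, Cyba, Ncf1 and Ncf4) and 5 epithelial (Nox1, Noxa1, Noxo1, Duox2 and Duoxa2), out of 22911 genes named on the arrays. Every probe whose transcript accession belongs to a member in the RefSeq table of the GRCm38.p6 assembly was taken, which gave 13 probes for 8 genes. No probe was assigned to Duox2 in this way, so Duox2 was not analysed here.

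RNA was measured on 4 one-colour Agilent arrays, 1 for each of 4 populations sorted from EpCAM+ intestinal tumour epithelium. They were Lgr5+ tuft marker+ (both markers), Lgr5+ tuft marker- (Lgr5 alone), Lgr5- tuft marker+ (the tuft marker alone) and, with neither, Lgr5- tuft marker- cells. Tamoxifen had been given 14 days before to Lgr5CreERT2/+; Ctnnb1lox(ex3)/ox(ex3) mice, in which a Cre driven by Lgr5, a receptor of intestinal stem cells, acts on a loxP-flanked exon of Ctnnb1, the beta-catenin gene. The tuft marker, named IL17RB in the design text, is a surface receptor of tuft cells, the rare chemosensory cells of the gut. The age and number of the animals, any pooling and the part of the intestine are not given in the sources used here.

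Each level below is a log2 signal minus its array's 75th percentile, so that 0 is that percentile. Each error comes from the spot errors in the scanner files. These cover reading of the spots only, and a difference is called beyond the error where it is over 1.96 times it. With 1 array per population nothing was tested, no p-value is given, and all differences describe these 4 arrays. Levels of different probes are not set against each other, since probes differ in brightness, and a sum over a marker list is weighted towards its bright probes.

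Between 60.2% and 69.0% of spots on an array were well above background, and no spot was saturated. Il17rb stood at -0.38 and 0.12 in the Lgr5+ and Lgr5- tuft marker+ cells, against -3.13 in Lgr5+ tuft marker- cells, and was not above background in Lgr5- tuft marker- cells. Lgr5 stood at -0.78 and -0.80 in Lgr5+ cells with and without the tuft marker, against a level not above background in Lgr5- tuft marker+ and -3.19 in Lgr5- tuft marker- cells. Epcam lay between 4.52 in Lgr5- tuft marker+ and 5.56 in Lgr5- tuft marker- cells, a difference of -1.04 (2.06-fold lower, error 0.20) and beyond the error. All 10 epithelial markers were above background on each of the 4 arrays. Il17rb and Lgr5 thus followed the labels, while Epcam was not even over the arrays.

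Promoter sequences of both enzyme classes are shown because the catalytic subunit and a partner of each differed in opposite directions between the sorts, as described below. They are RefSeq sequences of the GRCm38.p6 build, 250 bases before to 50 bases after the annotated start, written 5′ to 3′ on the strand of the gene. Capitals mark GAGGAA or its reverse complement TTCCTC, a form of the site read by ETS factors such as PU.1, which directs myeloid genes. Other forms of that site were not searched for and carry no capitals.
Cybb, chrX:9469275-9469574, minus strand: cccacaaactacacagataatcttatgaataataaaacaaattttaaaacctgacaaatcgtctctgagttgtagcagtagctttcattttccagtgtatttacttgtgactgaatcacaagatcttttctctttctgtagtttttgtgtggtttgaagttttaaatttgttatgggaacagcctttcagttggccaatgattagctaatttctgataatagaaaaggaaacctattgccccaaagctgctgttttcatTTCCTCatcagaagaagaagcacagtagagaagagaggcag
Cyba, chr8:122432891-122433190, minus strand: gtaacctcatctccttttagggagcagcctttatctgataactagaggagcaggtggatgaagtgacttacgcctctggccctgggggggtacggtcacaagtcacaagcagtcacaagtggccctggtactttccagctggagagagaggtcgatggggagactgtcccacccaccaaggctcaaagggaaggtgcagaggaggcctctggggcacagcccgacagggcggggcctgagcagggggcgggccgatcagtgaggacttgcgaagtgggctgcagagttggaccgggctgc
Nox1, chrX:134111805-134112104, minus strand: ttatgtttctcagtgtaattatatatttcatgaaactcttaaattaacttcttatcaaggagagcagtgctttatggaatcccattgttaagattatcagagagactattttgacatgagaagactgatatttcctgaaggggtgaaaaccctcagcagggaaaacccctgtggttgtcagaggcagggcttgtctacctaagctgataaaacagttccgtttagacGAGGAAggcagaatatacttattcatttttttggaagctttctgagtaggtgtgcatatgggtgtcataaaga
Noxo1, chr17:24695984-24696283, plus strand: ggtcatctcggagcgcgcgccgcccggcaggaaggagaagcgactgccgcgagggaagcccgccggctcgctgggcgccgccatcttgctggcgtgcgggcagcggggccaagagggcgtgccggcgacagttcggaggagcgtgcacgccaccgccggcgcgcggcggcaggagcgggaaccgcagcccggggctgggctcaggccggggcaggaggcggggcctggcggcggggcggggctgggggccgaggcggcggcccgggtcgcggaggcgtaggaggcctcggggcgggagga

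The table held promoters of 8 members, all but Ncf4. GAGGAA, searched on both strands, was in 2 of the 8, Cybb and Nox1, and in 28.3% of all 32851 promoter windows. In Cybb it began at base 10 counted from the start site, and in Nox1 at base -23. The GATA letters AGATAA were in the windows of Noxa1, Cyba and Cybb (11.2% of all), and CCAAT in those of Noxa1, Duox2 and Cybb (37.4%). TTCNNNGAA, read by STAT factors, was in that of Ncf1 (8.30%), and TATAAA in that of Duoxa2 (13.6%). These matches are descriptions of letters and did not divide the phagocytic from the epithelial genes. The G and C content of the 4 printed windows was 35.3% for Cybb, 60.7% for Cyba, 38.0% for Nox1 and 80.3% for Noxo1.

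The first comparison set tuft marker+ against tuft marker- cells, within Lgr5+ and within Lgr5-, 2 pairs of arrays that share no array. The phagocytic genes were higher in tuft marker+ cells in both pairs, Cybb by far the most. Of the epithelial genes, Nox1 and Noxo1 were lower in both, and the Duox2 maturation factor Duoxa2 went opposite ways.

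Cybb, the catalytic subunit of NOX2, stood at 2.08 in Lgr5+ tuft marker+ cells and at -3.03 in Lgr5+ tuft marker- cells. In Lgr5- cells it stood at 3.23 with the tuft marker and at -2.26 without it. Both tuft marker+ arrays were thus far above both others. The floor of an array, the lowest level of any probe well above background, was -3.86 in Lgr5+ and -3.69 in Lgr5- tuft marker- cells. The fold change was 34.7 within Lgr5+ (log2 difference 5.12, error 0.29) and 45.0 within Lgr5- (5.49, error 0.25). A second Cybb probe was above background on the tuft marker+ arrays alone, at 0.92 and 1.69, and differed by 27.4-fold or more within Lgr5+ and 41.5-fold or more within Lgr5-. After normexp, another background correction, the differences were 3.11 and 3.86.

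Cyba, the membrane partner that stabilises NOX2 and also serves NOX1, stood at 4.29 against 2.92 within Lgr5+ and at 4.56 against 3.42 within Lgr5-, tuft marker+ first. It was above background everywhere, and the tuft marker+ levels were the 2 highest. The differences were 1.37 (2.59-fold, error 0.20) and 1.14 (2.20-fold, error 0.20). Its second probe gave 0.55 and 1.19, so within Lgr5+ the size depended on the probe.

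Ncf1, the cytosolic organiser of NOX2, stood at 0.58 against 0.15 within Lgr5+ and at 1.02 against -0.19 within Lgr5-. The differences were 0.44 (error 0.21) and 1.21 (error 0.21), both beyond the error. Its second probe showed larger ones, 1.03 and 2.23. The remaining one, made for a non-coding transcript record of the gene, was above background in Lgr5- tuft marker+ cells alone, at -1.72. All 3 probes of Ncf1 were thus highest in that population.

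Ncf4, a regulatory subunit that binds phosphoinositides on the phagosome membrane, stood at -0.83 against -1.62 within Lgr5+ and at -0.59 against -2.28 within Lgr5-. It was 1.74-fold (0.80, error 0.22) and 3.23-fold (1.69, error 0.24) higher with the tuft marker. For Ncf1 and Ncf4 the difference was smaller within Lgr5+ than within Lgr5-, by -0.77 (error 0.29) and -0.89 (error 0.33), while for Cybb (-0.38, error 0.38) and Cyba (0.24, error 0.29) the gap was within the error.

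**Figure D1:**
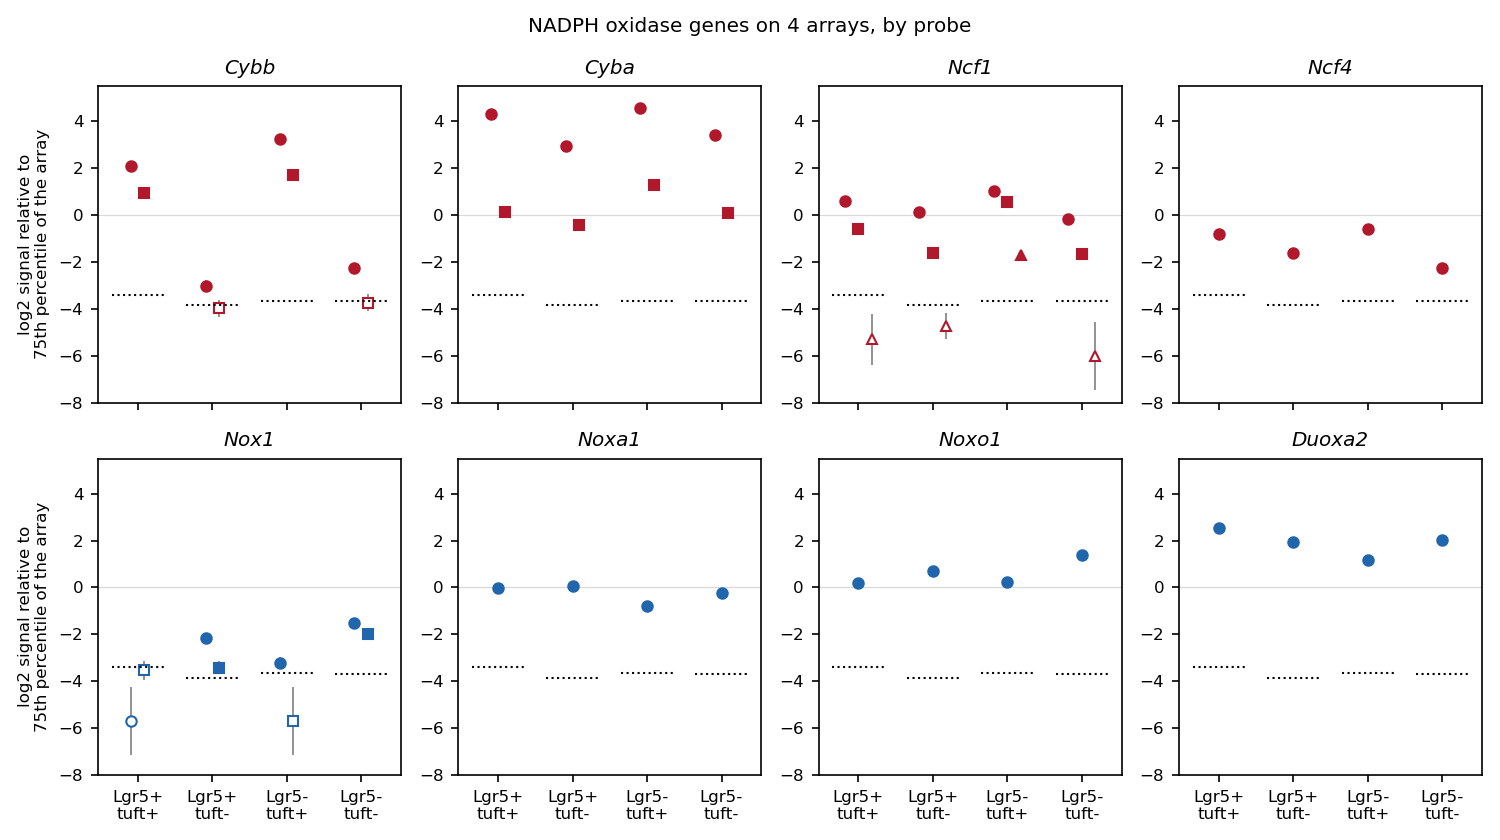
Log2 signal minus the array's 75th percentile (vertical axis) for the 13 probes of 8 NADPH oxidase genes in the 4 sorted populations (horizontal axis, tuft+ and tuft- standing for tuft marker+ and tuft marker-), phagocytic genes in red and epithelial genes in blue. Circles, squares and triangles are different probes of a gene in order of mean level, filled where above background, bars are scanner errors, and dotted lines are the floors of the arrays. Both Cybb probes are far higher on the tuft marker+ arrays, while Nox1 is near or below the floor there.

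Nox1, the catalytic subunit of the superoxide-making oxidase of the gut epithelium, was dim throughout. Its brighter probe was not above background in Lgr5+ tuft marker+ cells, against -2.16 in Lgr5+ tuft marker- cells. In Lgr5- cells it stood at -3.23 with the tuft marker and at -1.51 without it. Both tuft marker- levels were above both tuft marker+ levels. Nox1 was at least 2.39-fold lower with the tuft marker within Lgr5+ (log2 difference of -1.25 or lower), and 3.29-fold lower within Lgr5- (-1.72, error 0.30). The other probe was above background in neither tuft marker+ population, and was above it in both tuft marker- ones. It was at least 3.16-fold lower within Lgr5-, but gave no fold within Lgr5+, where the floor of the tuft marker+ array (-3.41) lay at the probe's level. After normexp the Nox1 differences were -0.26 and -0.64, under 2-fold in both pairs.

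Noxo1, the organiser that holds NOX1 active without a stimulus, stood at 0.19 against 0.72 within Lgr5+ and at 0.24 against 1.38 within Lgr5-. Both tuft marker+ levels were below both others. The differences were -0.53 (error 0.21) and -1.14 (2.21-fold lower, error 0.21). The second was under 2-fold with the authors' scaled values (-0.85) and after normexp (-0.90).

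Noxa1, the NOX1 activator, stood at -0.01 against 0.04 within Lgr5+, a difference of -0.06 inside the error of 0.21. Within Lgr5- it stood at -0.79 against -0.25 (-0.54, error 0.21). It had the narrowest range of the members, 0.83 between the highest and the lowest array.

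Duoxa2 lies next to Duox2 on chromosome 2, on the other strand. It stood at 2.53 in Lgr5+ tuft marker+ against 1.95 in Lgr5+ tuft marker- cells, and at 1.16 in Lgr5- tuft marker+ against 2.04 in Lgr5- tuft marker- cells. The Lgr5+ tuft marker+ level was thus the highest of the 4 and the Lgr5- tuft marker+ level the lowest. The differences were 0.57 and -0.88 (error 0.20 each), and the gap between them was 1.45 (error 0.29). When scaled to the array median the second was -1.11, past 2-fold. The median epithelial marker likewise stood at 0.35 within Lgr5+ against -0.73 within Lgr5-, and the median enterocyte marker at 1.87 against 0.02. Their part in this result was not tested.

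At least 2-fold higher with the tuft marker were 2 of the 8 measured members within Lgr5+ (Cybb and Cyba), where 10.4% of the 17501 genes measured in that pair were. Within Lgr5- these were 4 of 8 (all phagocytic members), against 16.3% of 17911 genes. At least 2-fold lower were 1 of 8 within Lgr5+ (Nox1), against 8.08% of genes, and 2 of 8 within Lgr5- (Nox1 and Noxo1), against 12.2%. In both pairs Cybb and Cyba were higher and Nox1 was lower, where 4.75% and 1.38% of genes were so. The 4 phagocytic members had median differences of 1.09 and 1.45 and the 4 measured epithelial ones of -0.29 and -1.01, beside 0.01 and 0.08 over all genes. Within Lgr5-, 57.2% of the genes past 2-fold were higher, a share that became 37.0% when arrays were scaled to their medians and 79.5% with the authors' scaled values.

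**Figure D2:**
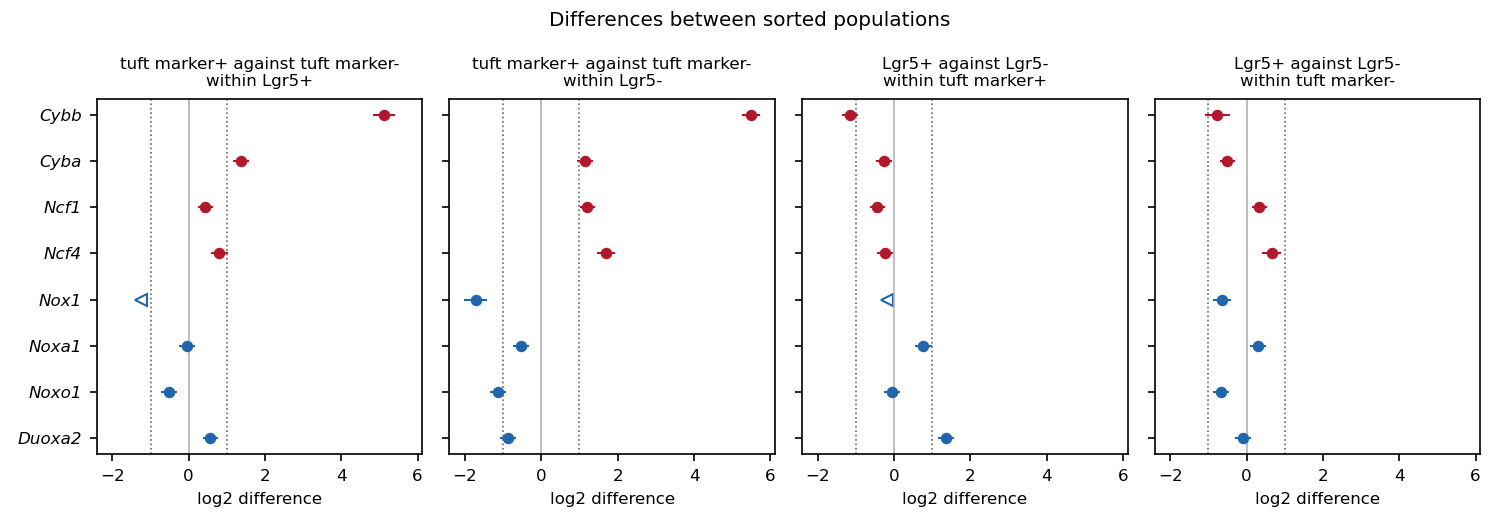
Log2 difference (horizontal axis) of 8 NADPH oxidase genes in the 4 pairs of populations, first-named minus second-named, phagocytic genes in red and epithelial genes in blue. Bars are scanner errors, open triangles are limits (at least this far from 0), and dotted lines mark 2-fold. Cybb lies past 5 in both tuft marker pairs, and in the Lgr5 pairs no measured difference lies past 1.36 in either direction.

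Most myeloid markers moved with the phagocytic genes. Of 18 myeloid markers, 13 were at least 2-fold higher with the tuft marker in both pairs, and the list medians were 3.60 and 4.20. By the smaller of their differences, those farthest apart were C1qc, a complement chain of macrophages, at 6.65 or more and 5.92, the macrophage receptor gene Adgre1 at 5.44 or more and 5.11, Ms4a7 at 4.78 or more and 5.14, and the calcium-binding protein gene Aif1 at 5.14 and 4.42. Other myeloid markers did not follow in both pairs. Within Lgr5+ 2 of the 18 were below 0, Lyz2 (-0.61, and 0.34 within Lgr5-) and Csf1r (-0.05 and 0.15). C1qb differed by 0.22 and 1.65, and Mrc1 by 0.17 and 3.52 or more. All 18 were above background on both tuft marker+ arrays, while Adgre1, C1qa, C1qc, Itgax and Ms4a7 were not in Lgr5+ tuft marker- cells, and Itgax and Mrc1 were not in Lgr5- tuft marker- cells. The summed linear level of the list, in multiples of the 75th percentile, was 858 with the tuft marker and 555 without it within Lgr5+, and 988 and 634 within Lgr5-. Most of it came from Itgam, an integrin gene of myeloid cells that differed by 0.35 and 0.15. Without Itgam the sums were 212 against 49.4 within Lgr5+ and 341 against 51.1 within Lgr5-. The part of such cells in the oxidase values was not tested, and in sorted bulk RNA more cells of a type and more RNA per cell cannot be told apart.

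Tuft cell markers moved as well: 14 of 16 passed 2-fold upward in both pairs, with medians of 2.77 and 3.48. Their summed level was 99.9 against 13.0 within Lgr5+ and 84.4 against 7.72 within Lgr5-. The count, medians and sums include Il17rb, the marker of the sort itself, at 2.75 and 3.80 or more. Plcb2, the phospholipase of taste signalling, differed by 4.77 and 5.66 and the kinase gene Dclk1 by 3.49 and 3.93. Cybb lay among the myeloid and tuft cell markers in the plot of both pairs, and Nox1, Noxo1 and Duoxa2 lay nearer the epithelial markers.

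Markers of other blood cells were read as well. Of 11 neutrophil markers with a probe 6 were above background in Lgr5+ tuft marker+ cells, against 9 in Lgr5+ tuft marker- cells, and 9 in Lgr5- tuft marker+ against 8 in Lgr5- tuft marker- cells. Their medians were 0.11 and 0.75, and none was 2-fold higher in both pairs. Within Lgr5-, 9 of 10 measured were above 0 and 3 were at least 2-fold higher, S100a9 by 1.56, Elane by 1.38 and Ltf by 1.01 or more. Within Lgr5+, 1 of 9 measured was at least 2-fold higher (Cxcr2, 1.42) and 1 lower (Camp, -1.27), and Elane differed by -0.78. S100a8 was above background in Lgr5- tuft marker+ cells alone, and Ngp in Lgr5- tuft marker- cells alone. Without Csf3r, the brightest, the summed level was 3.07 against 3.48 within Lgr5+ and 6.87 against 3.27 within Lgr5-. The part of neutrophils in the Ncf1 and Ncf4 values was not tested. The eosinophil peroxidase gene Epx was above background on no array, and the 3 measured eosinophil markers had medians of -0.50 and 0.34. Of these Prg2 differed by -1.02 or lower within Lgr5+ and by 2.34 or more (5.05-fold) within Lgr5-. B and plasma cell markers had medians of 0.30 and 0.89, and the B cell gene Ms4a1 was above background nowhere. Jchain, at 3.12 or more and 4.07, was the only 1 of 5 measured in both pairs that was 2-fold higher in both. Pax5 differed by -0.29 and -0.61. The medians were 0.04 and 0.94 for T and NK cell markers, and 2.73 and 3.30 for stromal and endothelial markers. Of the stromal and endothelial markers measured in both pairs, 5 of 7 were 2-fold higher in both, Vim the farthest at 4.69 and 5.09. Acta2 differed by -0.07 and -0.80 and Pecam1 by -0.40 and 1.96. Pdgfrb, Cdh5 and Kdr were not above background on either Lgr5+ array.

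**Figure D3:**
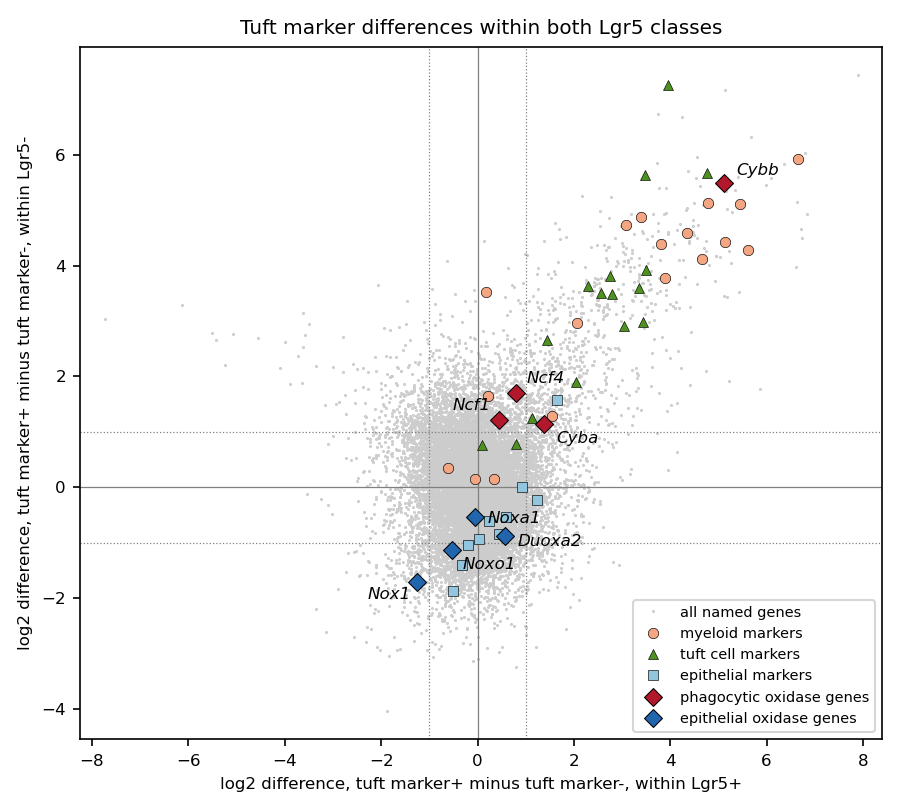
Log2 difference between tuft marker+ and tuft marker- cells within Lgr5+ (horizontal axis) and within Lgr5- (vertical axis) for genes measured in both pairs, with dotted lines at 2-fold and limits plotted at their bound. Diamonds are the NADPH oxidase genes, red phagocytic and blue epithelial, beside myeloid, tuft cell and epithelial markers. Cybb, at 5.12 and 5.49, lies among the myeloid and tuft cell markers, and Nox1, at -1.25 (a limit) and -1.72, lies below 0 in both.

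The rest of the oxidase machinery was read from a list of 10 genes. At least 2-fold higher with the tuft marker were 3 of 9 measured within Lgr5+ and 4 of 9 within Lgr5-, and 1 and 0 were lower, with medians of 0.40 and 0.82. Rac2, the GTPase that switches on the enzyme in blood cells, stood at 1.58 against -0.96 within Lgr5+ and at 1.88 against -1.67 within Lgr5-, tuft marker+ first, 5.83-fold and 11.6-fold higher.

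Rac1, the GTPase used in other cells, differed by 0.76 and -0.23, and Rap1a, a small GTPase found with NOX2, by 0.24 and 0.11. Cybc1, a chaperone of the Cybb protein, differed by 1.38 (error 0.29) and 0.82 (error 0.34). Hvcn1, the proton channel that balances the charge NOX2 moves, differed by -0.47 within Lgr5+ and by at least 2.60 within Lgr5-. Of the other oxidases, Nox3 was above background on no array. Nox4, a constitutively active oxidase, stayed near the floor, between -3.33 and -3.73 on the 3 arrays where it was above background. Duox1, the second dual oxidase, was not above background in Lgr5+ tuft marker+ cells, against -0.96 in Lgr5+ tuft marker- cells, a difference of -2.34 or lower. Within Lgr5- it stood at -1.31 with and -2.36 without the tuft marker, a difference of 1.05. Its maturation factor Duoxa1 differed by -0.60 and -0.11.

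Genes that handle superoxide and peroxide showed no direction common to both pairs, with 13 of 23 above 0 within Lgr5+ and 16 of 25 below 0 within Lgr5-. Within Lgr5+ 3 of 23 were at least 2-fold higher and 1 lower (median 0.10), beside 10.4% and 8.08% of all genes. Within Lgr5- 5 of 25 were higher and 4 lower (median -0.65), beside 16.3% and 12.2%. In both pairs Gpx3, a secreted glutathione peroxidase, was higher by 4.17 and 3.67 and Hmox1, which breaks down haem, by 3.32 and 2.02. Txnrd2, the mitochondrial thioredoxin reductase, was above background in the tuft marker- cells alone, with differences of -1.54 or lower and -1.36 or lower. Gpx2, the gut epithelial glutathione peroxidase, was picked out after its values were seen, at -0.27 and -1.47.

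Transcription factors linked to these genes were read from a list of 12. Spi1, the gene for PU.1, was above background on the tuft marker+ arrays alone, at -1.50 in Lgr5+ and -0.14 in Lgr5- cells, and differed by 5.11-fold or more and 11.6-fold or more. Cebpb, a factor of myeloid and epithelial cells, was higher by 1.67 and 2.28. They were the only members of the list that were 2-fold higher in both pairs. The medians of that list were 0.70 and -0.04.

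Genes that inflammation induces in gut epithelium, as it does Duox2 and Duoxa2, had medians of 0.16 and 0.59. In both pairs 3 of 13 were at least 2-fold higher with the tuft marker, namely Saa3 (3.33 or more and 3.72), Saa2 (2.93 and 2.47) and the chemokine gene Cxcl1 (2.17 and 2.57). Saa genes are close copies whose probes may read each other, although Saa1 differed by only -0.12 and 0.34. Nos2, which makes nitric oxide and was picked out after its values were seen, differed by -0.34 and -0.88.

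Beside the lower Nox1 and Noxo1 stood lower goblet cell markers, with medians of -1.07 and -1.54 and 4 of 8 at least 2-fold lower in both pairs, namely Retnlb (-1.85 and -2.15), Zg16, Spink4 and Clca1. Krt18 was the only 1 of 10 epithelial markers 2-fold higher in both pairs (1.65 and 1.58). Of 5 measured colon genes 1 was lower in both, the chloride exchanger gene Slc26a3 (-1.67 and -1.60), and none of 5 small intestine genes was 2-fold apart in both. Their medians were -0.73 and 0.80 for colon and 0.67 and -0.58 for small intestine genes. The part of these cell types in the Nox1 and Noxo1 values was not tested.

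The second comparison set Lgr5+ against Lgr5- cells. It reuses the same 4 arrays, so its values are not independent of those above. Within tuft marker+ cells 1 of 8 members was at least 2-fold higher (Duoxa2), against 8.92% of 17625 genes, and 1 of 8 was lower (Cybb), against 11.3%, shares close to those over all genes. Within tuft marker- cells 0 of 8 were past 2-fold in either direction, where 6.44% of 17527 genes were higher and 5.25% lower. No member was past 2-fold in both pairs, where 0.727% of 16497 genes were higher and 0.582% lower. Of the genes past 2-fold within tuft marker+, 44.0% were higher, a share of 67.0% when arrays were scaled to their medians and 28.0% with the authors' scaled values, and within tuft marker- 55.1% were, or 40.9% when scaled to the medians.

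Duoxa2 differed by 1.36 (2.57-fold, error 0.20) within tuft marker+, at 2.53 in Lgr5+ and 1.16 in Lgr5- cells, and by -0.09 (error 0.20) within tuft marker-. Noxa1 differed by 0.77 (error 0.21) and by 0.29 (error 0.21), the second inside the error. Cybb was lower in Lgr5+ cells of both classes, by -1.15 (2.21-fold lower, error 0.20) within tuft marker+ and -0.77 (error 0.32) within tuft marker-. Under scaling to the array median the first of these was -0.93. Its second probe gave -0.77 within tuft marker+ and was above background in neither tuft marker- population.

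Cyba differed by -0.26 (error 0.20) and -0.50 (error 0.20), only the second beyond the error, although its second probe gave -1.14 within tuft marker+. Ncf1 (-0.44 and 0.34) and Ncf4 (-0.24 and 0.65) were signed oppositely in both classes, with 1 of each pair of values inside the error. The second Ncf1 probe gave -1.15 (2.21-fold lower) and 0.06, and the probe for the non-coding record -1.69 or lower within tuft marker+. Noxo1 differed by -0.05 (0.17 when scaled to the median) and -0.66, so that it was lower in Lgr5+ cells beyond the error within tuft marker- alone. Nox1 had a limit of -0.19 within tuft marker+ (0.03 when scaled to the array median) and differed by -0.65 (error 0.23) within tuft marker-, where its other probe gave -1.42. Myeloid markers had medians of -0.90 and -0.41 on this axis and epithelial markers of 0.63 and -0.35, beside Cybb and Duoxa2 in sign within tuft marker+. Their part was not tested.

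The order of levels over the 4 populations summed up these values for each gene. All 4 phagocytic genes were highest in Lgr5- tuft marker+ and next in Lgr5+ tuft marker+ cells. For Cyba and Ncf4 these leading levels did not differ beyond the error. Nox1, by its brighter probe, and Noxo1 were both highest in Lgr5- tuft marker- cells and next in Lgr5+ tuft marker- cells. Then came Lgr5- tuft marker+ and last Lgr5+ tuft marker+ cells, a step within the error for both genes. The brighter Nox1 probe was not above background in Lgr5+ tuft marker+ cells, and the other Nox1 probe in neither tuft marker+ population, so their order there is not resolved. The Noxa1 levels of the 3 highest populations followed each other within the error. The range from highest to lowest array was 6.26 for Cybb and between 0.83 and 1.69 for the members other than Cybb and Nox1.

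Genes with the pattern most like a catalytic subunit were looked for among the 14053 above background on all 4 arrays, by the distance between levels centred on each gene's mean over the 4 arrays. Nearest to Cybb were C3ar1, a complement receptor gene (distance 0.46), Msn, for the membrane linker moesin (0.48), Laptm5, a lysosomal gene of blood cells (0.70), the receptor gene Sirpb1b (0.70) and Qk, for an RNA-binding protein (0.72). C3ar1 was higher with the tuft marker by 4.63 and 5.44. Nearest to Nox1 were Trim2 (0.14), Bcar1 (0.16), Pde7a (0.17), Rhbdl2 (0.19) and H2bc14 (0.21), with Nox1 raised to the floor where it lay below it. With 4 arrays many genes share a pattern, and likeness in level says nothing of shared function.

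**Figure D4:**
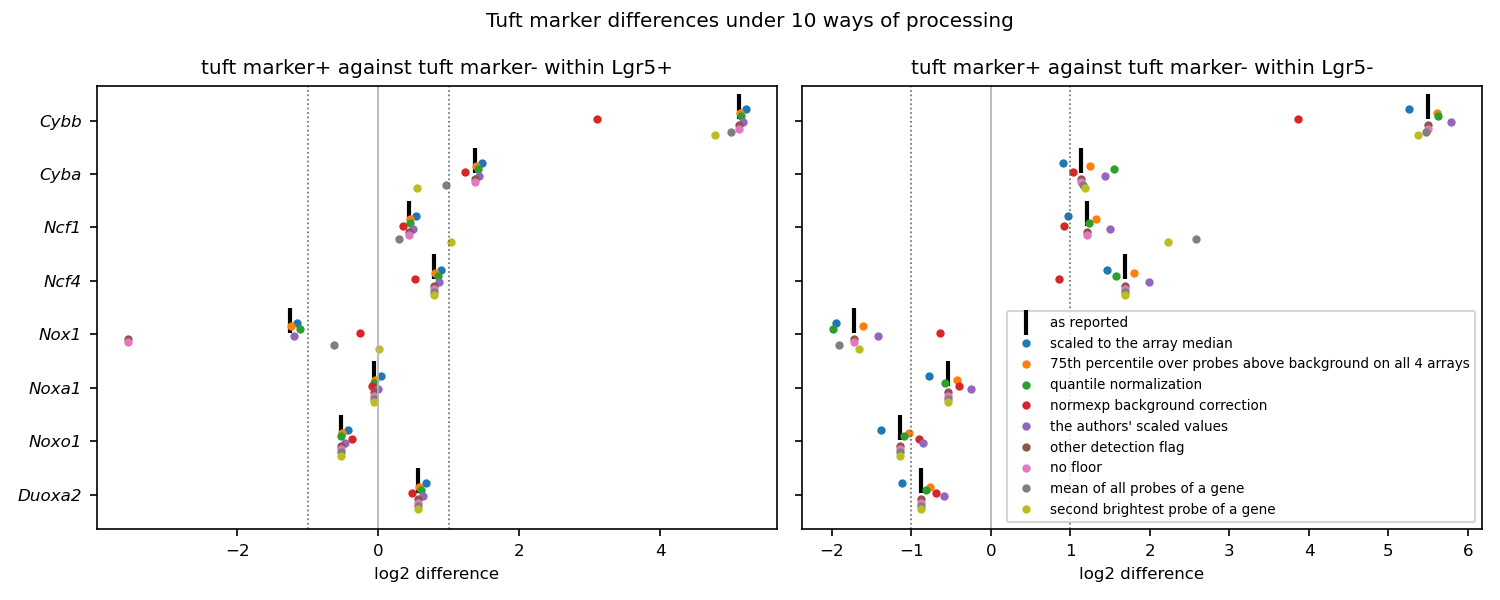
Log2 difference between tuft marker+ and tuft marker- cells (horizontal axis) within Lgr5+ (left) and within Lgr5- (right) for 8 NADPH oxidase genes, as reported (black bars) and under 9 other ways of processing (coloured points), with dotted lines at 2-fold. Cybb keeps between 3.11 and 5.22 within Lgr5+ and between 3.86 and 5.79 within Lgr5-, while the Nox1 difference within Lgr5+ ranges from -3.56 to 0.0077.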

How the data were processed

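RNA (13 ng per sample, per the labels' protocols) was labelled with Cy3. Per the file headers, the deposited spot intensity had background and spatial trend removed by Agilent Feature Extraction 12.0.3.1 (11.5.1.1 per the submitters' processing notes), with no scaling between arrays. The same deposited files hold 0 or 1 flags, among them the one for spots well above background. The authors' deposited table of intensity values was linear, uncentred and equal to the scanner signal times 10.9, 7.82, 11.9 and 9.08 in double-positive, Lgr5-only, tuft-marker-only and double-negative cells (column medians 279, 286, 365 and 253). The sources used here do not say why.

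Control spots and 91 to 122 outlier spots per array were left out, log2 was taken, and each array's own 75th percentile was taken off. Copies of a probe were averaged, and the level of a gene was read from the probe with the highest mean level. A gene counted as above background on an array where any of its probes was. Of 56605 probes, 32994 were named. Levels under the array's floor were raised to it, and differences against a level not above background are limits. A level not above background but over the floor was kept as it stood, so such limits are not strict. Duox1 in Lgr5+ tuft marker+ cells, at -3.30 with a floor of -3.41, was of this kind. Normexp (limma 3.58.1, R 4.3.3, offset 50) used median spot signals. All else was computed with Python 3.11.15 and was tested on simulated data. Besides the members, 16 lists with 178 genes were read, 176 with a probe. Except where stated and for the oxidase list, genes named from a list were taken by a rule. The rule took up to 4 per axis at least 2-fold apart in the same direction in both pairs. Other named markers were not above background, were the brightest, or were named after their values were seen to show how a list varied. The members and lists were chosen with earlier results of these data known. Some genes of the lists are counted but not reported here by name.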

Additional observations from a re-analysis of the deposited data

Results flagged for a closer look

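Duoxa2 was the member whose tuft marker difference had opposite signs in the Lgr5 classes, each beyond the scanner error: 0.57 within Lgr5+ and -0.88 within Lgr5-. With 1 array per population the difference between these was not tested.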

How the results depend on the processing

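Of 11 differences of a member past 2-fold, 6 stayed past it after normexp, 8 each under scaling to the array median, with the mean of all probes and with the second brightest probe, 10 with the authors' scaled values, and 11 each with quantile normalization, the percentile over probes above background on all 4 arrays, the other detection flag and no floor. The flag and the floor can move only differences with a level not above background or under the floor. Among the 11 only Nox1 within Lgr5+ was such, so the others were bound to stay in those settings. Ncf4, Noxo1 and Duoxa2 had 1 probe each, so their differences could not change in the mean and second probe settings. Within Lgr5+ the 2 members higher with the tuft marker became 1 with the mean of all probes. The 1 lower there became 0 after normexp, with the mean of all probes and with the second brightest probe, an alternative chosen after seeing the data, with which Nox1 turned to 0.0077, a value set by the floor. Within Lgr5- the 4 higher became 2 after normexp and also under scaling to the median, and the 2 lower became 0 after normexp, 1 with the authors' scaled values and 3, with Duoxa2 at -1.11, when scaled to the median. For Lgr5 within tuft marker+ the 1 lower was Ncf1 in place of Cybb with the mean of all probes, and became 0 when scaled to the median and 2 with the other detection flag, with no floor and with the second probe, and within tuft marker- the 0 lower became 1 with the mean of all probes and with the second probe. The cause was not tested. The median of genes above background on all 4 arrays within Lgr5- was -0.04, -0.27 when scaled to the median and 0.26 with the authors' scaled values. After normexp the genes past 2-fold within Lgr5- fell to 949 higher and 785 lower, against 2926 and 2187 as reported. Low signal limits Nox1 most. No replicate could be left out, and no paired analysis was possible because each population had 1 array and the labels carry no replicate numbers.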
